A study of Mus musculus with 2 samples.

Results

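The SOX factors of groups B, E and F comprise 10 genes of the deposited table, chosen by symbol: Sox1, Sox2 and Sox3 (group B1), Sox21 (group B2), Sox8, Sox9 and Sox10 (group E), and Sox7, Sox17 and Sox18 (group F). They are 10 of 30744 gene symbols and 10 of 20 Sox genes in the table, and each has 1 gene model. The study holds 2 RNA-seq libraries of mouse kidney. One is from a kidney tumour of an animal with the genotype Tet-OSKM/mPer2-luc that was given doxycycline (Dox ON), and the other is from a normal kidney with the genotype WT and no doxycycline. In Tet-OSKM animals doxycycline switches on transgenes for the reprogramming factors Oct4, Sox2, Klf4 and c-Myc through the rtTA activator at the Rosa26 locus, and mPer2-luc joins luciferase to Per2, a gene of the circadian clock. Rosa26 is active in most tissues. The strain background of both is C57BL/6 x DBA/2 F1. Chimeric animals had been produced from transgenic embryonic stem cells put into host blastocysts, so a tissue of such an animal can mix transgenic and host cells, and the labels of both libraries carry this protocol. The age, the number of animals and the time on doxycycline are not given in the sources used here. With 1 library per group there is no replicate, so every difference below compares these 2 libraries and not the conditions, and no p-value was computed.

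SOX proteins bind DNA through a high-mobility-group (HMG) box that bends the double helix, and most act with a partner factor bound beside them. Group B1 factors keep pluripotent and neural progenitor cells undifferentiated, and Sox2 pairs with Oct4 on composite elements. Group E factors act in neural crest, cartilage, glia, the gonad and the branching ureteric bud, and group F factors act in blood vessels and endoderm.

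The group B genes differ from the others in exon number. In GENCODE M21 the coding transcripts of Sox1, Sox2, Sox3 and Sox21 have 1 exon each, against 3, 3 and 5 exons for Sox8, Sox9 and Sox10, and 2, 5 and 2 exons for Sox7, Sox17 and Sox18. Genes whose coding transcripts all have 1 exon made up 4.61% of the 19607 coding genes that could be matched to the table. The GC content of the transcripts ran between 49.3% (Sox9) and 66.4% (Sox3) and did not separate the groups. Promoter windows of 300 bases were held by RefSeq (GRCm38.p6) for 4 members, and the windows of the group B genes are shown because these genes had no read in the normal library and many in the tumour library. Sox2 lies at chr3:34649745-34650044 on the plus strand, Sox1 at chr8:12395269-12395568 on the plus strand and Sox21 at chr14:118236981-118237280 on the minus strand. Capitals mark matches, on either strand, to any of 6 motifs.
Sox2: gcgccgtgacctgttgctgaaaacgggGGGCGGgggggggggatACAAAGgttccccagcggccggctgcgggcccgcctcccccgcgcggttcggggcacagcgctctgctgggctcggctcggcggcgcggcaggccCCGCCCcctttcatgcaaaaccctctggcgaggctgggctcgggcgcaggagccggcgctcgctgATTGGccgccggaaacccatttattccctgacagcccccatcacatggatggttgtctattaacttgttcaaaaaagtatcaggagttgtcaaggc
Sox1: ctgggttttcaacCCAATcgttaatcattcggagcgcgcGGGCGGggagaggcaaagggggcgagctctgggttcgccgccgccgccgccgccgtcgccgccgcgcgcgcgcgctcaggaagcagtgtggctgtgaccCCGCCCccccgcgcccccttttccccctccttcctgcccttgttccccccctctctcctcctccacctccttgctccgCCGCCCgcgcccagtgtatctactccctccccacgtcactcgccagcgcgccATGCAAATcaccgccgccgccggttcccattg
Sox21: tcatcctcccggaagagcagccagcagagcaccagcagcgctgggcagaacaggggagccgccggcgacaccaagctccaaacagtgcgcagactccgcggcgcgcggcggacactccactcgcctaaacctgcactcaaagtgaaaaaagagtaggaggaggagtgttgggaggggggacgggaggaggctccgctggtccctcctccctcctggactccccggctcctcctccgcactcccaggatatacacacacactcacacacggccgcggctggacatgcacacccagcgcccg
The motifs were the SOX letters ACAAAG and ACAATG, the octamer ATGCAAAT, the CCAAT box (CCAAT), the GC box (GGGCGG) and the TATA box (TATAAA), and no matches overlapped in these windows. Sox2 held 1 ACAAAG, 1 CCAAT and 2 GC boxes. Sox1 held 1 octamer, 1 CCAAT and 3 GC boxes, and Sox21 held no match. Of all 32851 promoter windows, 18.7% held ACAAAG, 12.6% ACAATG, 1.74% the octamer, 37.4% CCAAT, 35.7% the GC box and 13.6% TATAAA. The 3 windows were rich in CpG, with 27 sites in Sox2, 37 in Sox1 and 22 in Sox21, against a median of 7 over all windows.

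Counted reads over exons came to 20836819 in the tumour library (62.8% of its header total) and 29258428 in the normal library (72.4%). RPKM, the deposited level of a gene scaled to model length and to the header total, is used below for levels and for comparisons between genes of 1 library. Between libraries, the tumour-over-normal ratio of counts scaled with edgeR's trimmed mean of M values (TMM) is used. Its exact 95% interval covers counting error only, and PCR copies count as separate reads in it. Genes with 20 or more reads in the sum of both libraries count as measured, and one is called higher or lower at 2-fold or more with an interval that excluded 1. A count of 0 was set to a floor of 3 counts, and the ratio is then given as "at least". Of 16326 measured genes 31.2% were called higher and 28.0% lower, so 59.2% either way. Calls were higher for 52.8% of them, and for 67.6% with plain CPM, which shifts the median log2 ratio of all genes by 0.56. As a check of the tissue label, 10 of 10 genes of nephron segments had reads in both libraries, with a summed level of 863 CPM in the tumour and 24302 CPM in the normal library (CPM, TMM-scaled counts relative to library size). Of these genes 8 were called lower, among them the phosphate transporter Slc34a1 and the loop of Henle genes Umod and Slc12a1. Their log2 ratios were -10.61, -7.38 and -7.05. The podocyte gene Nphs1 had a log2 ratio of -0.02 and Podxl of -0.51.

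Group B Sox genes had reads in the tumour library only, group E transcripts were few in the normal library and more abundant in the tumour library, and group F transcripts were found in both. Of the 10 genes 9 were measured, 6 were called higher, 1 lower and 2 neither, and Sox10 stayed under the minimum. At 4-fold or more 6 were higher and 0 lower, beside 18.5% of measured genes higher, 15.8% lower and 34.3% either way. The measured group B genes reached the minimum through the tumour library alone and so had to differ. In the tumour library the levels of the 10 genes spanned 0.155 to 46.9 RPKM. In the normal library they lay between 0 and 1.68 RPKM. In bulk tissue, a different number of cells of a type and a different amount of RNA per cell cannot be told apart.

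**Figure D1:**
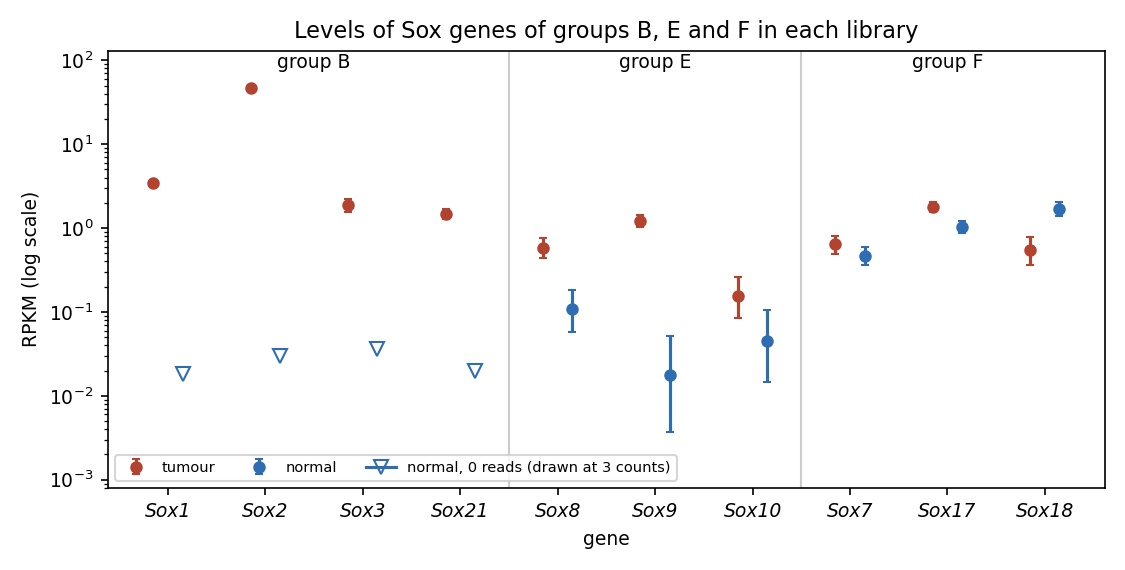
RPKM of each Sox gene of groups B, E and F (log axis) in the tumour library and in the normal library, with exact 95% Poisson intervals for counting error as bars, and open triangles at the level of 3 counts where the normal library had 0 reads. The 4 group B genes have points in the tumour library only, while the 3 group F genes lie within a few-fold in both libraries.

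Sox2 (uc008oxu.1, chromosome 3, 34650005 to 34652460), the reprogramming factor that pairs with Oct4, had 3820 reads in the tumour library and 0 in the normal library. Its level was 46.9 RPKM (interval 45.4 to 48.4) in the tumour library, against 0 in the normal library, where the floor equals 0.0302 RPKM. The ratio was at least 1215-fold. With genes at 0 reads entered at their bounds, 0.0919% of measured genes had a larger ratio, a share that depends on the floor. A transgene for Sox2 is part of the tumour animal's genotype, and reads over its exons cannot be told apart here as transgene or endogenous. Pou5f1, the gene of Oct4 and a further factor of that genotype, stood at 254 RPKM in the tumour library and 0 in the normal library. The other 2 factors differed less, with Klf4 at 5.49 RPKM in the tumour and 1.07 RPKM in the normal library, and Myc at 5.89 RPKM in the tumour and 0.754 RPKM in the normal library.

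Sox1 (uc009kwa.2, chromosome 8, 12395519 to 12399555), a marker of the early neural plate, had 461 reads in the tumour library and 0 in the normal library. Its level in the tumour library was 3.44 RPKM (3.14 to 3.77), and the ratio was at least 147-fold. Sox3 (uc009vff.1, chromosome X, 60891366 to 60893430), the X-linked B1 factor of neural and pituitary development, had 128 reads in the tumour and 0 in the normal library. It reached 1.87 RPKM (1.56 to 2.22) in the tumour library, a ratio of at least 40.7-fold. Sox21 (uc007uyt.2, chromosome 14, 118233234 to 118237030), a B2 factor that represses B1 targets, had 185 reads in the tumour and 0 in the normal library. Its level was 1.47 RPKM (1.26 to 1.697) in the tumour library and the ratio at least 58.8-fold. None of these 3 genes is a factor of the transgene, and all 3 stood far above the level of 3 counts, at most 0.0360 RPKM in the normal library. The exact lower limits of the 4 group B ratios lie below the bounds set by the floor, at 987-fold for Sox2, 119-fold for Sox1, 47.4-fold for Sox21 and 32.6-fold for Sox3. Sox14, the other B2 gene of the table, had 6 reads in the tumour and 0 in the normal library and was not measured.

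Noncoding transcripts that overlap group B genes were scarce beside them. Sox2ot, which spans Sox2 on the same strand (chromosome 3, 34638252 to 34680851), had 40 reads in the tumour and 3 in the normal library. Gm5607, which spans Sox1 on the same strand, had 28 reads in the tumour and 0 in the normal library. AK039417, which overlaps Sox21 on the opposite strand, had 10 reads in the tumour and 0 in the normal library. The library kit keeps the strand, but no source used here gives the strand setting with which reads were assigned. In GENCODE M21, exons on the opposite strand cover 713 bases of the exons of Sox21 (Gm4675), 329 of Sox8 (2810468N07Rik) and 804 of Sox17 (Gm37587), so opposite-strand reads could not be set apart for these 3 genes. Gm25239 covers 86 exon bases of Sox1 on the same strand.

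Among group E genes, Sox9 showed the largest difference. Sox9 (uc007med.2, chromosome 11, 112782210 to 112787757), a factor of cartilage, Sertoli cells, the ureteric bud and repairing kidney tubules, had 167 reads in the tumour library and 3 in the normal library. Its level was 1.22 RPKM (1.04 to 1.41) in the tumour library and 0.0179 RPKM (0.00370 to 0.0524) in the normal library, 53.1-fold higher in the tumour library (17.9 to 260). Sox8 (uc008bay.1, chromosome 17, 25565893 to 25570686), which acts beside Sox9 in the ureteric bud and gonad, had 58 reads in the tumour and 13 in the normal library. It stood at 0.584 RPKM (0.443 to 0.754) in the tumour and 0.107 RPKM (0.0572 to 0.184) in the normal library, 4.26-fold higher in the tumour library (2.31 to 8.47). With RPKM plus 1 its log2 ratio was 0.52, short of 2-fold. Sox10 (uc007wsu.2, chromosome 15, 79154913 to 79164506), the factor of migrating neural crest, Schwann cells and melanocytes, had 14 reads in the tumour and 5 in the normal library. Its ratio of 2.67 had an interval of 0.909 to 9.48 that includes no difference, so that no difference was detectable at this depth.

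The balance between Sox9 and Sox8 differed between the libraries as well. Per length, Sox9 stood at 2.08 times Sox8 in the tumour library and 0.167 times in the normal library. The factor between both values does not depend on how the libraries are scaled. Its conditional maximum likelihood estimate from the read counts, which differs slightly from the plain quotient, was 12.3 (exact 95% interval 3.23 to 69.8). Such ratios were taken for 12 gene pairs, picked after the counts had been seen.

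Group F genes were the most abundant of the 10 in the normal library, and their summed level was 2.97 RPKM in the tumour and 3.19 RPKM in the normal library. Their summed reads were 293 in the tumour and 310 in the normal library, and the TMM-scaled ratio of 0.902 (0.766 to 1.06) includes no difference. Sox18 (uc008ona.1, chromosome 2, 181669837 to 181671640), a factor of blood and lymphatic vessel development and of hair follicles, had 29 reads in the tumour and 110 in the normal library. Its level was 0.541 RPKM (0.362 to 0.777) in the tumour and 1.68 RPKM (1.38 to 2.03) in the normal library, 3.98-fold lower in the tumour library (2.62 to 6.21). With RPKM plus 1 its log2 ratio was -0.80, short of 2-fold. It was the only one of the 10 genes called lower.

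Sox17 (uc007afc.2, chromosome 1, 4490928 to 4497354), a factor of endoderm and arterial endothelium, had 195 reads in the tumour and 138 in the normal library. Its level was 1.79 RPKM (1.55 to 2.06) in the tumour and 1.04 RPKM (0.874 to 1.23) in the normal library. The ratio of 1.35 (1.08 to 1.69) was short of 2-fold, and it was not called. Sox7 (uc007uhy.1, chromosome 14, 63943706 to 63950732), a factor of primitive endoderm and endothelium, had 69 reads in the tumour and 62 in the normal library. It stood at 0.637 RPKM (0.496 to 0.807) in the tumour and 0.470 RPKM (0.360 to 0.603) in the normal library, a ratio of 1.06 with an interval of 0.742 to 1.52 that includes no difference. With plain CPM its log2 ratio was 0.64, still short of 2-fold, so its closeness to no difference depends on the scaling.

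The order of the group F genes differed between the libraries. Per length, Sox17 stood at 3.31 times Sox18 in the tumour library and 0.618 times in the normal library, and the conditional estimate of the factor between them was 5.34 (3.31 to 8.83). For Sox7 over Sox18 these values were 1.18 in the tumour and 0.279 in the normal library, with a conditional estimate of 4.197 (2.40 to 7.48). For Sox17 over Sox7 they were 2.81 in the tumour and 2.21 in the normal library, and the interval of the conditional estimate, 1.27 (0.828 to 1.94), includes no difference.

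Across the 10 genes the order of levels differed between the libraries. In the tumour library Sox2 led, at 13.6 times the next gene, Sox1 (interval 12.4 to 15.04), and Sox1 stood at 1.84 times Sox3 (1.51 to 2.26). Sox3, Sox17, Sox21 and Sox9 followed, and no neighbours among them differed beyond counting error. Sox9 stood at 1.91 times Sox7 (1.43 to 2.56). Sox7, Sox8 and Sox18 came next without a difference between neighbours, and Sox18 stood at 3.49 times Sox10 (1.79 to 7.15), the lowest. In the normal library the order was Sox18, Sox17, Sox7 and Sox8, each above the next beyond counting error, at 1.62 times (1.25 to 2.095), 2.21 times (1.63 to 3.04) and 4.38 times (2.38 to 8.68). Below Sox8 came Sox10 and Sox9, which did not differ from their neighbours beyond counting error, and the 4 group B genes at 0.

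**Figure D2:**
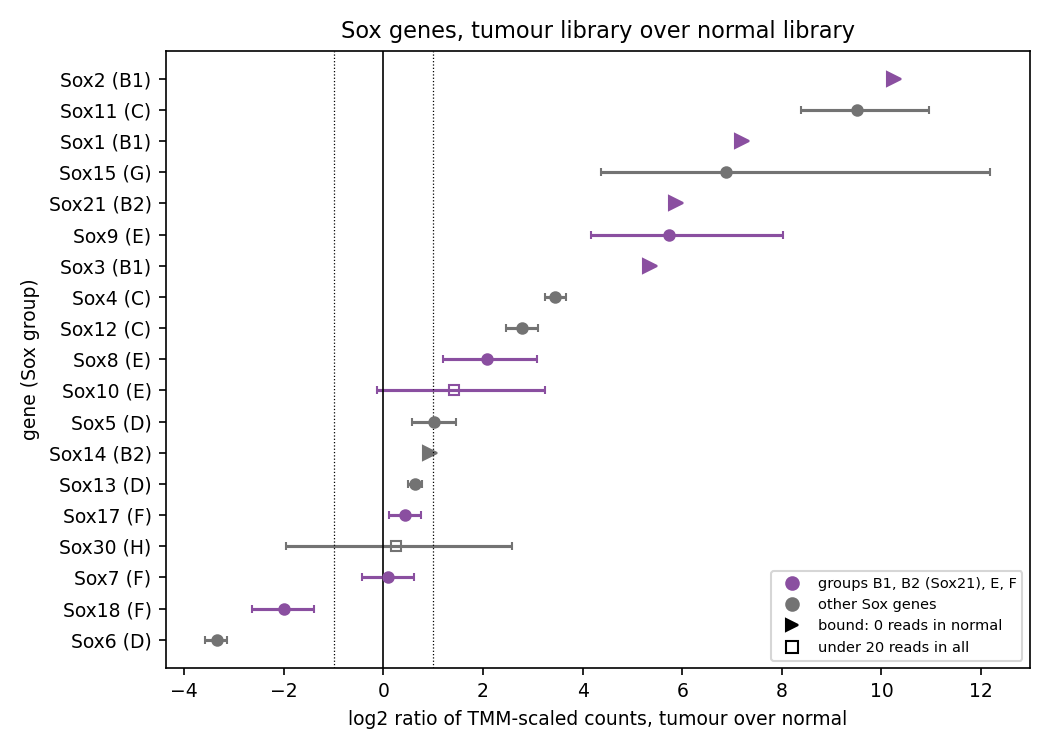
Log2 ratio, tumour over normal, of counts after TMM scaling, for the 19 Sox genes with reads, with exact 95% intervals for counting error as bars, arrowheads for bounds where the normal library had 0 reads, and dotted lines at 2-fold. Sox2 lies highest at 10.25, and Sox18 at -1.99 and Sox6 at -3.35 are the genes to the left of the 2-fold line.

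Set against the other 10 Sox genes, the 10 factors took a larger share of Sox transcripts in the tumour library with Sox2 and a smaller one without it. The RPKM of all 20 Sox genes summed to 116.8 in the tumour and 15.5 in the normal library. Groups B, E and F held 50.2% of that sum in the tumour and 21.7% in the normal library. Sox2 alone held 40.2% in the tumour library and 0% in the normal library. The 9 factors besides Sox2 held 10.02% of the sum over all 20 genes in the tumour and 21.7% in the normal library. Group E held 1.67% in the tumour and 1.10% in the normal library, and group F held 2.54% in the tumour and 20.6% in the normal library. The members' summed level was 58.6 RPKM in the tumour and 3.36 RPKM in the normal library, 17.4-fold higher in the tumour. Without Sox2 it was 11.7 RPKM in the tumour and 3.36 RPKM in the normal library, 3.48-fold higher. With TMM-scaled counts per kilobase the fold was 13.6 with Sox2 and 2.72 without it.

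**Figure D3:**
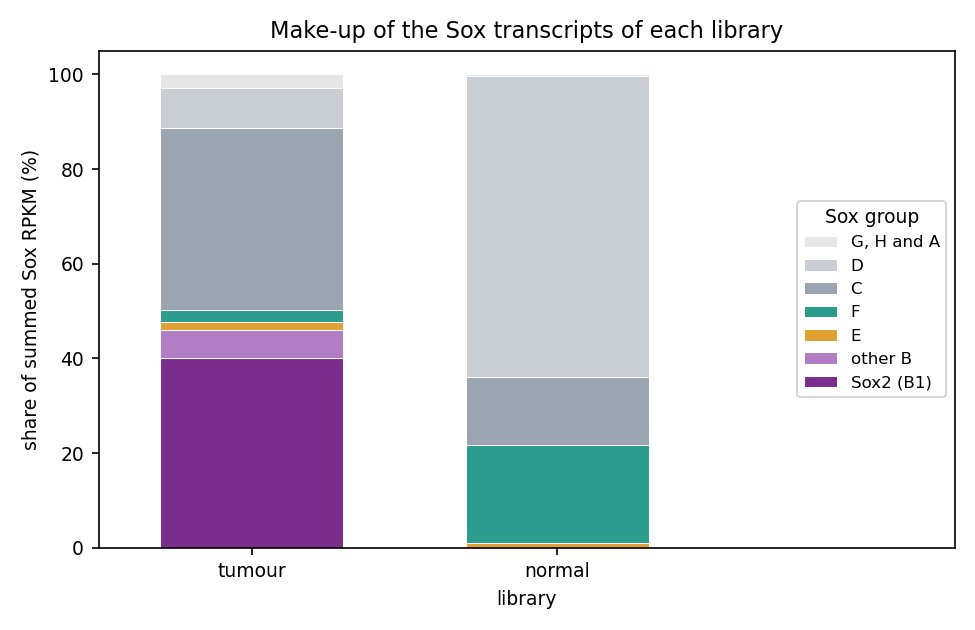
Share of each Sox group in the summed RPKM of 20 Sox genes (percent), in the tumour library and in the normal library. Sox2 fills 40.2% of the tumour bar, group D 63.5% of the normal bar, and group F 2.54% of the tumour bar and 20.6% of the normal bar.

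Of the other 10 Sox genes 7 were measured, of which 5 were called higher, 1 lower and 1 neither. Sox11, a group C factor of neuronal and mesenchymal progenitors, had 4568 reads in the tumour and 6 in the normal library, 726-fold higher (333 to 1980). Its group C relative Sox4 had 2357 and Sox12 had 654 reads in the tumour library, against 205 and 91 in the normal library. Sox15, the group G factor that is close to group B1 in sequence, had 123 reads in the tumour and 1 in the normal library (117-fold higher, 20.7 to 4672). Sox5 was 2.01-fold higher (1.48 to 2.76). Sox6, a group D factor that acts with Sox5 and Sox9 in cartilage, was 10.2-fold lower (8.77 to 11.9), and Sox13 had a ratio of 1.56, which was called higher with plain CPM. Group D held 8.53% of the Sox sum in the tumour and 63.5% in the normal library. Sox30 had 5 reads in the tumour and 4 in the normal library, and Sry had 0 in both.

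Gene lists tied to the roles of the 3 groups are given next by counts and median log2 ratio, beside a median of 0.08 over all measured genes and calls for 31.2% of them higher, 28.0% lower and 59.2% either way. Genes with 0 reads in 1 library entered at the bound set by the floor. The exact lower limits of ratios given as "at least" lie below these bounds, at 549-fold for Zic2, 374-fold for Fgf4 and 330-fold for Col2a1. A measured gene with 0 reads in the normal library could only be called higher, so the counts below are descriptions. These counts and medians describe these 2 libraries.

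Beside group B, genes with known Oct-Sox composite elements were called higher for 7 of 7, with a median of 8.85, and 4 of them, Pou5f1 included, had 0 reads in the normal library, which fixed their call. Pou5f1 is itself a factor of the transgene, and its reads cannot be told apart here as transgene or endogenous. Fgf4, a growth factor of the epiblast and a textbook target of Sox2 and Oct4, had 1448 reads in the tumour and 0 in the normal library, at least 460-fold higher. Utf1, a chromatin factor of pluripotent cells, had 1388 reads in the tumour and 0 in the normal library, at least 441-fold higher. Lefty1, an inhibitor of Nodal, was 219-fold higher (137 to 376). Pou5f1 and Nanog have near-identical copies elsewhere in the genome, and the handling of such reads was not given in the sources used here.

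Of 13 neural progenitor genes 11 were measured, and 10 were called higher, none lower and 1, Neurog2, neither (log2 ratio -0.62), with a median of 4.37. Of the 10 called higher, 7 had 0 reads in the normal library, so that their call was fixed by the read minimum. Zic2, a zinc finger factor of the neural plate, had 2125 reads in the tumour and 0 in the normal library, at least 676-fold higher. Pax6, a factor of the eye and forebrain, had 320 reads in the tumour and 0 in the normal library, at least 102-fold higher. Msi1, an RNA-binding protein of neural stem cells, had 616 reads in the tumour and 1 in the normal library (588-fold, 105 to 23248). The summed level of the 13 genes was 323 CPM in the tumour and 52.3 CPM in the normal library. Nes alone held 147 CPM in the tumour and 47.0 CPM in the normal library, 3.12-fold higher (2.92 to 3.34), so the sums largely reflect this gene. Of the 13 genes 8 had 0 reads in the normal library, while all 13 had reads in the tumour library.

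Of 12 neuron genes 11 were called higher and 1 lower, with a median of 4.89, and 4 of the 11 had 0 reads in the normal library. The neuronal tubulin Tubb3 had 1038 reads in the tumour and 0 in the normal library, at least 330-fold higher. Stmn2, a tubulin-binding protein of growing axons, was 49.1-fold higher (29.6 to 88.2), and Dcx, a microtubule protein of migrating neurons, had 330 reads in the tumour and 1 in the normal library. Syp, a protein of synaptic vesicles, was 2.05-fold lower (1.56 to 2.70), a call that was lost with plain CPM. Sox1, Sox3 and Sox21 are also made in neural progenitors, and the part of such cells in their values was not tested.

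Beside group E, lists of cartilage, neural crest, melanocyte, oligodendrocyte, Sertoli, ureteric tip and injured tubule genes were examined. Of 12 cartilage genes 10 were measured, and the calls were 8 higher, 1 lower and 1 neither. Of the 8 called higher, 5 had 0 reads in the normal library, so that their call was fixed by the read minimum. Their median was 5.02. Their summed level was 105 CPM in the tumour and 2.16 CPM in the normal library, and 7 of them, Acan and Col2a1 included, had 0 reads in the normal library. The cartilage collagen Col2a1, a textbook target of Sox9, had 1278 reads in the tumour and 0 in the normal library, at least 406-fold higher. Col9a2 had 329 reads in the tumour and 0 in the normal library, and Col11a1 had 446 reads in the tumour and 2 in the normal library. Hapln1, a link protein of cartilage matrix, had 5 reads in the tumour and 20 in the normal library and was called lower, a call lost with RPKM plus 0.1. The part of cartilage cells in the Sox9 value was not tested.

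Of 11 neural crest and Schwann cell genes 7 were measured, and 2 were called higher, 2 lower and 3 neither. These are 28.6% higher and 28.6% lower, near the 31.2% and 28.0% of all measured genes. The median was 0.14. Foxd3, a factor of early neural crest that pluripotent cells make too, had 390 reads in the tumour and 1 in the normal library. The neurotrophin receptor Ngfr was 6.17-fold higher (4.24 to 9.26). Tfap2b, which distal nephron cells also make, was 10.9-fold lower (8.73 to 13.8), and the receptor Erbb3 was 3.14-fold lower (2.898 to 3.396). Cdh19 and S100b, genes of Schwann cells and glia, had fewer than 20 reads over both libraries, and the list summed to 84.7 CPM in the tumour and 178 CPM in the normal library.

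Of 6 melanocyte genes 2 were measured, Pmel (11.9-fold higher, 5.82 to 28.4) and Mitf (2.497-fold lower, 2.17 to 2.89, a call lost with plain CPM). Their median was 1.13. The pigment enzyme Tyr had 0 reads in both libraries, Dct had 0 in the tumour and 1 in the normal library, and Tyrp1 had 1 in the tumour and 0 in the normal library. Of 7 oligodendrocyte genes 6 were measured, and 5 were called higher, with a median of 1.49. They included Olig1 (73 reads in the tumour, 2 in the normal library) and Olig2 (33 in the tumour, 0 in the normal library). Myrf was 3.65-fold, Mbp 2.15-fold and Mag 2.07-fold higher (1.01 to 4.50 for Mag), and Cnp, with a ratio of 1.77, was not called. The myelin gene Mog had 1 read in the tumour and 0 in the normal library.

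Of 8 Sertoli cell genes 5 were measured, with 3 called higher, 1 lower and 1 neither. Their median was 1.17. Dmrt1, a factor of the testis that germ cells make as well, had 455 reads in the tumour and 0 in the normal library, at least 145-fold higher. The Sertoli hormone gene Amh, a target of Sox9 in the testis, had 8 reads in the tumour and 4 in the normal library, and the receptor Fshr had 0 in both.

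All 6 ureteric tip genes were called higher, with a median of 3.07. The receptor gene Ret, which the ureteric bud needs for branching, had 105 reads in the tumour and 5 in the normal library, 20.03-fold higher (8.32 to 63.0). The Ret-induced factors Etv4 and Etv5 were 19.2-fold (12.9 to 29.7) and 9.55-fold (8.63 to 10.6) higher. The summed level of the 6 genes was 271 CPM in the tumour and 41.1 CPM in the normal library. Etv5 alone held 165 CPM in the tumour and 17.2 CPM in the normal library. The part of ureteric tip cells in the Sox8 and Sox9 values was not tested. Of 6 injured tubule genes 5 were called higher and 1, Krt8, neither, with a median of 3.64. The tubule injury marker Havcr1 (KIM-1) had 1146 reads in the tumour and 39 in the normal library, 28.03-fold higher (20.4 to 39.6), and Lcn2 was 27.9-fold higher (19.5 to 41.2). The part of injured tubule cells in the Sox9 value was not tested.

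Beside group F, most endothelial genes were lower in the tumour library. Of 17 endothelial genes 13 were called lower, 1 higher and 3 neither. Their median was -1.99. Their summed level was 239 CPM in the tumour and 883 CPM in the normal library, and none was at 0 in either. The VEGF receptor Kdr was 15.8-fold lower (13.9 to 18.1), the ETS factor Erg 11.6-fold lower (8.09 to 17.3) and Plvap, a protein of fenestrated endothelium, 9.32-fold lower (8.19 to 10.7). Von Willebrand factor (Vwf) was 2.79-fold higher (2.03 to 3.89), a call lost with RPKM plus 1, and the junction genes Pecam1 and Cdh5 had log2 ratios of -0.38 and -0.88 and were not called. The part of the number of endothelial cells in the group F values was not tested.

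Against Cdh5, which marks endothelial junctions, the group F genes differed from each other. By the same conditional estimate, the read ratio Sox17 to Cdh5 was 2.48 times as high in the tumour as in the normal library (1.91 to 3.22), and that of Sox7 to Cdh5 was 1.95 times as high (1.33 to 2.87). The ratio Sox18 to Cdh5 was 0.463 times as high (0.290 to 0.719). Against Pecam1 the values were 1.76 for Sox17 (1.39 to 2.23), 1.39 for Sox7 (0.962 to 2.0002) and 0.328 for Sox18 (0.209 to 0.502), so that for Sox7 the interval included no difference. These ratios do not depend on the scaling, but they depend on the reference gene. Cdh5 and Pecam1 are among the 3 of 17 endothelial genes called neither higher nor lower, while 13 were called lower. Sox18 had a log2 ratio of -1.99, beside a median of -1.99 for the 17 genes. Levels per endothelial cell were not measured.

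Of 7 arterial genes 4 were called lower, 2 higher and 1 neither. Their median was -1.33. Gja4, a gap junction gene, was 16.1-fold lower (6.63 to 51.1). Its relative Gja5 was 5.63-fold lower (3.71 to 8.83), and the Notch ligand Dll4 was 4.05-fold lower (3.12 to 5.31). Efnb2 and Hey1 were 2.99-fold and 4.05-fold higher. Of 4 lymphatic genes, Lyve1, which some macrophages also make, was 70.4-fold higher (29.9 to 218) and Pdpn, which podocytes also make, 5.82-fold higher (4.93 to 6.90). Flt4 was 2.18-fold lower (1.78 to 2.67), a call lost with plain CPM, and Prox1, a target of Sox18 in lymphatic vessels, had a ratio of 1.59 and was not called. With plain CPM and with header totals it was called higher, which made 3 lymphatic genes called higher in place of 2. The median of these 4 genes was 1.61.

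Sox17 and Sox7 also act in endoderm. Of 12 definitive endoderm genes 10 were called higher and 2 lower, with a median of 3.78. Of the 10 called higher, 6 had 0 reads in the normal library, so that their call was fixed by the read minimum. Foxa2, a pioneer factor of endoderm, had 273 reads in the tumour and 0 in the normal library, at least 86.8-fold higher. The Nodal and Wnt inhibitor Cer1 had 463 reads in the tumour and 0 in the normal library, at least 147-fold higher, and Eomes was 94.4-fold higher (40.2 to 292). Hnf4a, which proximal tubules make, was 90.9-fold lower (80.9 to 102). It alone had 290 reads in the tumour and 25140 in the normal library, and the list summed to 103 CPM in the tumour and 1079 CPM in the normal library. The part of endoderm in the Sox17 value was not tested.

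Of 8 extraembryonic endoderm genes 7 were measured, with 4 called higher, 2 lower and 1 neither. Their median was 1.89. Of the 4 called higher, 1, Gata4, had 0 reads in the normal library, so that its call was fixed by the read minimum. The laminin chain Lama1 was 4.43-fold higher (4.18 to 4.69) and Gata6, a factor of primitive endoderm, 4.45-fold higher (3.09 to 6.57). Afp, a product of visceral endoderm, had 65 reads in the tumour and 48 in the normal library and was not called. Ttr was 84.5-fold lower (64.3 to 113) and Apob 22.1-fold lower (21.03 to 23.3).

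**Figure D4:**
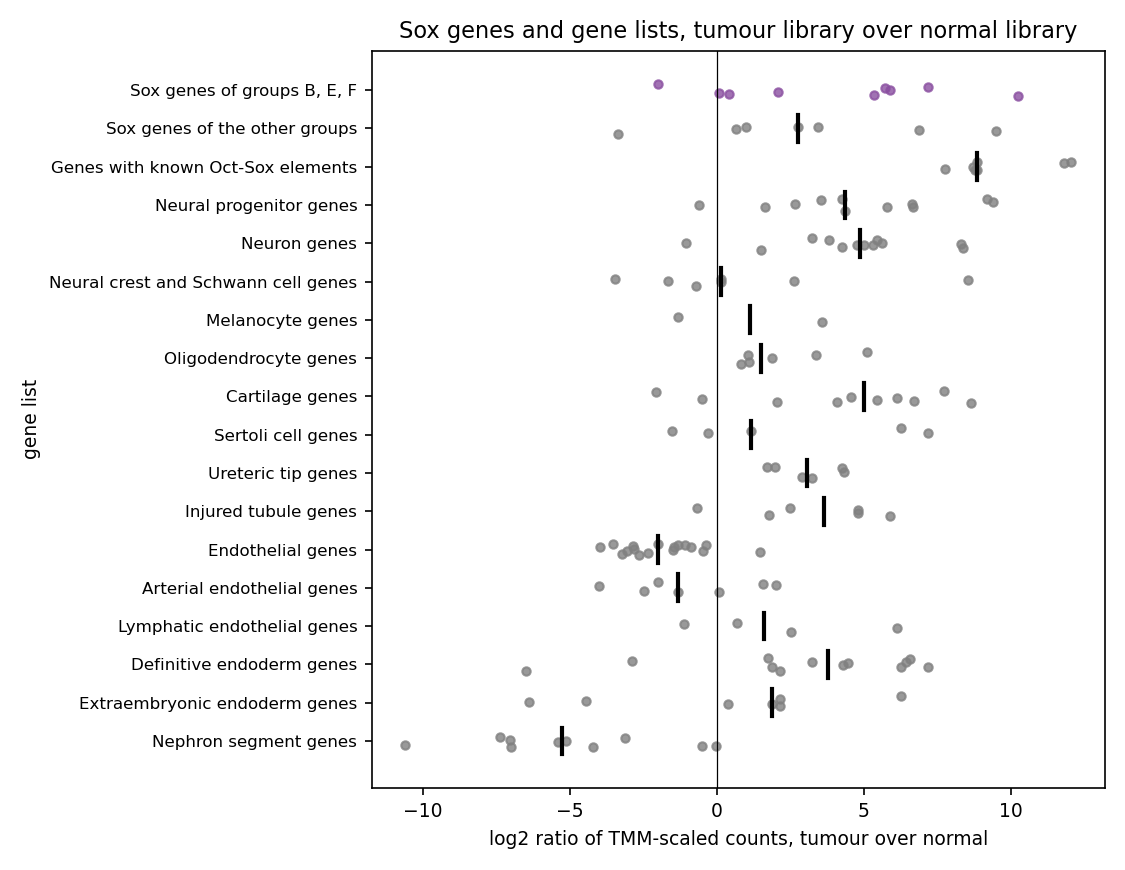
Log2 ratio, tumour over normal, of counts after TMM scaling, for each measured gene of the Sox groups B, E and F (top row) and of 17 gene lists (rows), with black bars at the median of each list. The Sox genes span -1.99 to 10.25, the Oct-Sox list has its median at 8.85 and the endothelial list at -1.99.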

How the data were processed

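Total RNA of a kidney tumour and of a normal kidney was depleted of ribosomal RNA and sequenced from strand-preserving libraries, per the labels' protocols. Read counts over exons, as whole numbers, were deposited for 32958 UCSC gene models, with 33169818 reads in the tumour and 40408775 in the normal library per the file headers. The authors also deposited RPKM values, which were recomputed from the counts, model lengths and header totals with a largest difference of 1.80e-06. Tools named in the submitters' processing notes are STAR 2.5.0c, bcl2fastq and HOMER, with the build mm10, and how reads with several positions were treated is not stated there. Exon structure came from GENCODE M21 of the same assembly.

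Where a symbol had several models, the one with most reads stood for it. TMM factors (edgeR 4.0.16, R 4.3.3) were 1.21 for the tumour and 0.824 for the normal library, so that the floor of 3 counts equals 0.119 CPM in the tumour and 0.124 CPM in the normal library. Ratios and exact intervals used scipy 1.17.1 in Python 3.11.15, and figures matplotlib 3.10.9. The calls were tested on simulated counts, drawn with counting error only and with few genes changed. Such counts cannot test a spread between animals or a difference in most genes. Since each group has 1 library, ratios describe these libraries. Alternatives were other scalings (DESeq2 1.42.0 size factors among them), pseudocounts, floors, filters and a fold of 4.

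The 10 genes and the 17 gene lists were chosen with earlier results of these data known. The text names every Sox gene, every overlapping gene model, and in each list the 3 genes farthest from no change on the side of the median, plus the farthest called gene on the opposite side, provided the mean was 1 CPM or more. In lists of 8 genes or fewer any gene may be named. Acan, Podxl, Nphs1, Nes, Neurog2, Erbb3, Hapln1, Pecam1, Cdh5, Cdh19 and S100b were named after their values were seen. No protein sequences were used here, and some members of the lists are counted but not reported by name.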

Additional observations from a re-analysis of the deposited data

How the results depend on the processing

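No paired analysis was possible because each group has 1 library. The counts of 6 Sox members called higher and 1 called lower were the same under plain CPM, header totals, DESeq2 size factors, TMM without mitochondrial models and Rn45s, a floor of 1 count, summed models, RPKM plus 0.1 and no filter on low counts. With RPKM plus 1 they were 5 higher and 0 lower, since that pseudocount exceeds the levels of Sox8 and of Sox18 in the tumour and takes their log2 ratios to 0.52 and -0.80. With a fold of 4 they were 6 higher and 0 lower, since Sox18 stood at 3.98-fold lower. Of the 6 called higher, 4 were group B genes with 0 reads in the normal library. Their calls were close to fixed under these scalings, floors and filters, so the stable count says little about them. None of the other members changed direction under these settings. The log2 ratio of Sox17 was between 0.42 and 0.99, that of Sox18 between -2.00 and -0.80, and that of Sox9 between 1.12 and 6.29. For Sox7 it was between 0.08 and 0.64, the latter with plain CPM. The median of all measured genes shifted by 0.56 with plain CPM and 0.35 with header totals, and the share of calls that were higher was 52.8% as reported and 67.6% and 62.5% with these. The summed RPKM ratio of the 10 genes was 17.4, 13.6 with TMM-scaled counts per kilobase, and 3.48 without Sox2, a setting chosen after seeing the data. That of group F was 0.929, and 0.728 with TMM-scaled counts per kilobase. Of 320 list counts under the alternatives 290 stayed within 1.5 times and 30 did not, with 21 of these outside the 4-fold rule. The 2-fold calls of the single lower neuron, melanocyte and lymphatic genes Syp, Mitf and Flt4 were lost with plain CPM, header totals and both RPKM settings. Endothelial genes called lower were 8 with a fold of 4, and with RPKM plus 1 the arterial genes called lower were 0, the cartilage genes called higher 4 and the oligodendrocyte genes called higher 1. Depth limits Sox10, with 19 reads in all.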
